A study of Homo sapiens with 6 samples.

Results

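The genes described here are 46 genes of the endoplasmic reticulum (ER) that fold newly made secretory and membrane proteins, move them into the ER or mark the misfolded ones for destruction. They were compared between cells labelled HepG2 that carried a control hairpin (shNC) and cells of the same label with ARHGEF2 knocked down (shARHGEF2). The 46 genes were chosen by name, with the fold changes of these same 6 libraries already known and with the uneven HSPA5 values of the knockdown libraries as the stated reason. The shNC against shARHGEF2 values of the 46 genes are therefore given as a description, with no p-value for a gene or for the set; how many passed a threshold in the fit over all genes is stated beside the share of all genes that did. All 46 were among the 27605 genes listed, and all 46 were among the 12291 genes tested, which had a mean of at least 0.5 FPKM (fragments per unit of transcript length, scaled to the library's mapped fragments) over the 6 libraries. Of the 46, 45 reached that mean in both groups, and DERL3 reached it in shARHGEF2 only.

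HepG2 is an established human liver cancer line. Poly(A) RNA was sequenced from 3 shNC libraries and 3 shARHGEF2 libraries, and the knockdown was made with a lentivirus that carried a short hairpin against ARHGEF2, a guanine nucleotide exchange factor for the GTPase RhoA. The labels do not say whether the 3 libraries of a group were separate infections or cultures, or whether the 3 knockdown libraries carried 1 hairpin or several, so every error and p-value below measures the spread between these libraries, which may be technical. The labels name no drug or ER stressor for either group.

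ARHGEF2 itself was listed at 13.0, 14.4 and 13.9 FPKM in shNC and at 4.25, 4.0 and 4.82 FPKM in shARHGEF2. It fell in all 3 knockdown libraries, with a log2 fold change of -1.47, a standard error of 0.11 and an adjusted p of 0.00244 in limma. The depth estimated from the step size of the low values was between 20050000 and 23320000 read pairs per library, a rough figure, since only 39.9 to 41.4% of those values lay within 0.1 of a whole read where 20% would by chance, and no test used it. Of 12 hepatocyte markers, 6 were listed and only vitronectin (VTN, 5.51 to 6.60 FPKM) reached 1 FPKM. The highest value of AFP was 0.0703 FPKM and that of HNF4A 0.0956 FPKM. These defining markers of a hepatocyte line were thus at or near 0 in libraries labelled HepG2, and the identity of the cells was not tested. The other 6, including albumin, were not analysed here. Summed hepatocyte markers ran from 5.92 to 6.21 FPKM in shNC and from 6.67 to 7.57 in shARHGEF2. For 4 fibroblast markers the sums were 10.7 to 12.4 and 13.8 to 14.5, with COL1A1 and COL3A1 at 1 FPKM or more and COL1A2 at most 0.0453. For 3 endothelial markers the sums were 0.561 to 0.640 and 0.775 to 0.866, with none at 1 FPKM. Of 3 leukocyte markers only CD68, also a lysosomal gene of many cell types, was above 1 FPKM (60.4 to 87.8), and PTPRC was at most 0.0239. These marker sums were higher in shARHGEF2 for hepatocyte, fibroblast and endothelial genes, and their part in the results below was not tested. The genes of a sum did not all move together. Means were higher in shARHGEF2 for VTN (5.52 to 6.38 FPKM), RBP4, COL1A1, COL3A1, PDGFRB and PECAM1 (0.583 to 0.810 FPKM). They were lower for AFP, APOA1, SERPINA1, HNF4A, COL1A2, CDH5 and VWF, all low in both groups. In bulk libraries fewer cells of a type and less RNA per cell cannot be told apart.

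Proteins enter the ER lumen through the SEC61 channel, where the HSP70 chaperone BiP, encoded by HSPA5, binds their unfolded stretches, disulfide isomerases pair their cysteines and the lectins calnexin and calreticulin hold their sugar chains. Proteins that fail to fold are unwound, passed back through the membrane by the HRD1 ubiquitin ligase complex and degraded by the proteasome, which is called ER-associated degradation. When unfolded proteins accumulate, the sensors ATF6, IRE1 and PERK start the unfolded protein response, in which ATF6 and spliced XBP1 raise the transcription of many of these genes.

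The levels of the 46 genes spanned an 815-fold range of means over the 6 libraries, with a median of 12.8 FPKM against 3.96 FPKM over all genes tested. FPKM is a value per transcript length, so these levels may be compared between genes. Calreticulin (CALR) had the highest mean, at 460.2 FPKM, and DERL3 the lowest, at 0.564. In all, 7 genes had a mean of at least 100 FPKM and 13 a mean under 5, and 219 genes of the table lay above HSPA5. The abundant end held lumenal chaperones and isomerases (CALR, PPIB, P4HB, HSPA5, TXNDC5, SDF2L1 and PDIA4), while the glycoprotein-trimming EDEM1 and EDEM3, the adaptor SEL1L and the J proteins DNAJB9, DNAJC3 and DNAJC10 lay under 5 FPKM.

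**Figure D1:**
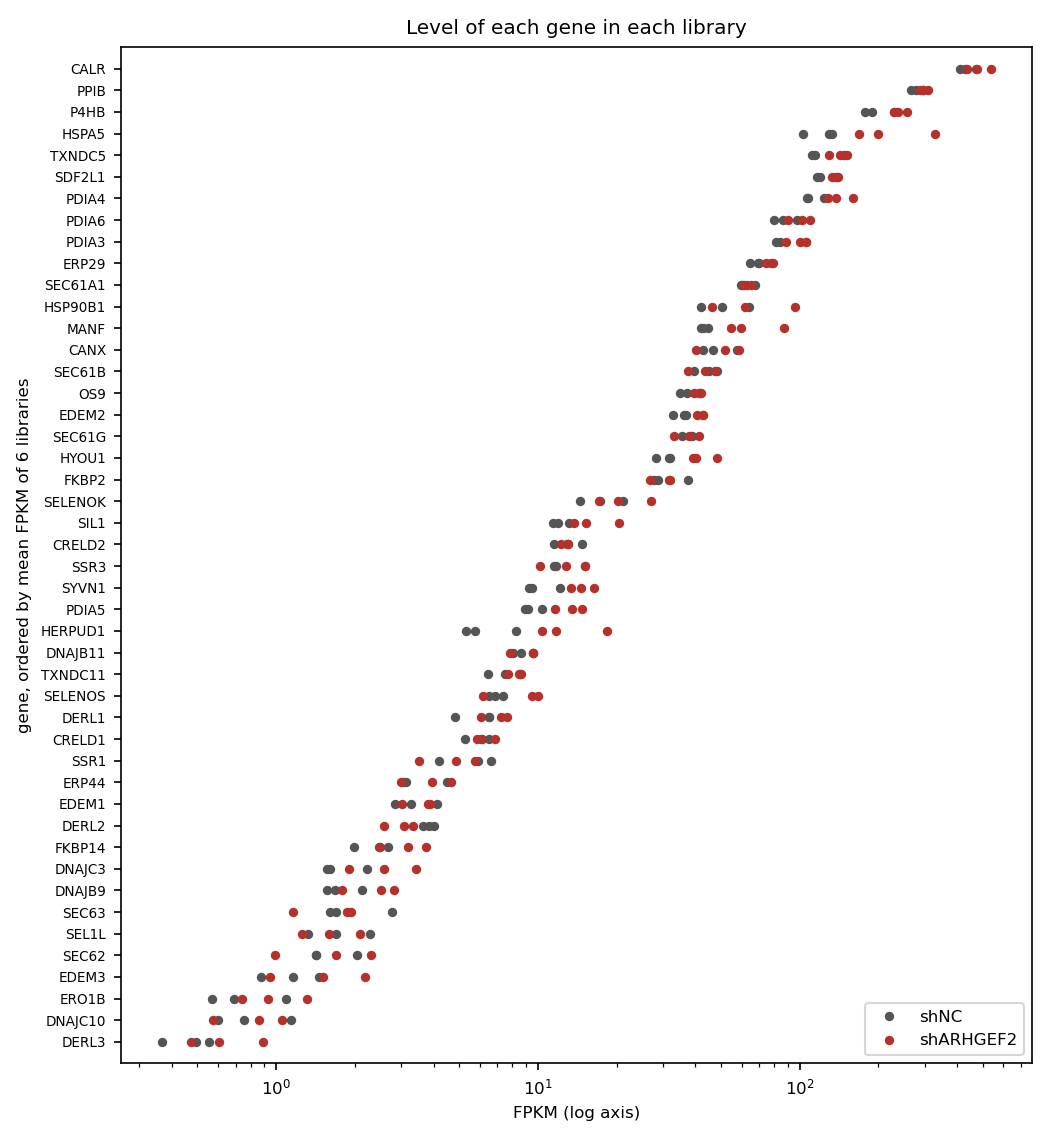
Level of each of the 46 genes in each of the 6 libraries, in FPKM on a log axis, ordered by the mean over libraries. Each point is 1 library, grey for shNC and red for shARHGEF2. The means run from 0.564 FPKM for DERL3 to 460.2 FPKM for CALR, and for most genes the points of both groups are mixed.

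Between the groups, 36 of the 46 genes were higher in shARHGEF2 and 10 were lower, where 49.6% of all genes tested were higher. The median log2 fold change was 0.15 for the 46 genes and -0.00 over all 12291, on the log2(FPKM + 1) scale, which understates the change of genes with low values. No gene of the 46 passed an adjusted p of 0.05 in limma, where 0.277% of all genes tested did. At an unadjusted p under 0.05, 10 were higher, beside 8.1% of all genes tested in that direction, and 0 were lower, beside 5.55%. Counting genes whose 3 shARHGEF2 libraries all lay above the 3 shNC libraries gave HSPA5, MANF, HYOU1, SIL1, PDIA5, PDIA4, ERP29, HERPUD1, SYVN1 and EDEM2, 10 of 46, beside 11.3% of all genes tested. DERL2 alone had all 3 knockdown libraries below the controls, 1 of 46 beside 9.17% of all genes tested. The remaining 35 genes overlapped. Because the genes were selected on this contrast, nothing is read from these shares.

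**Figure D2:**
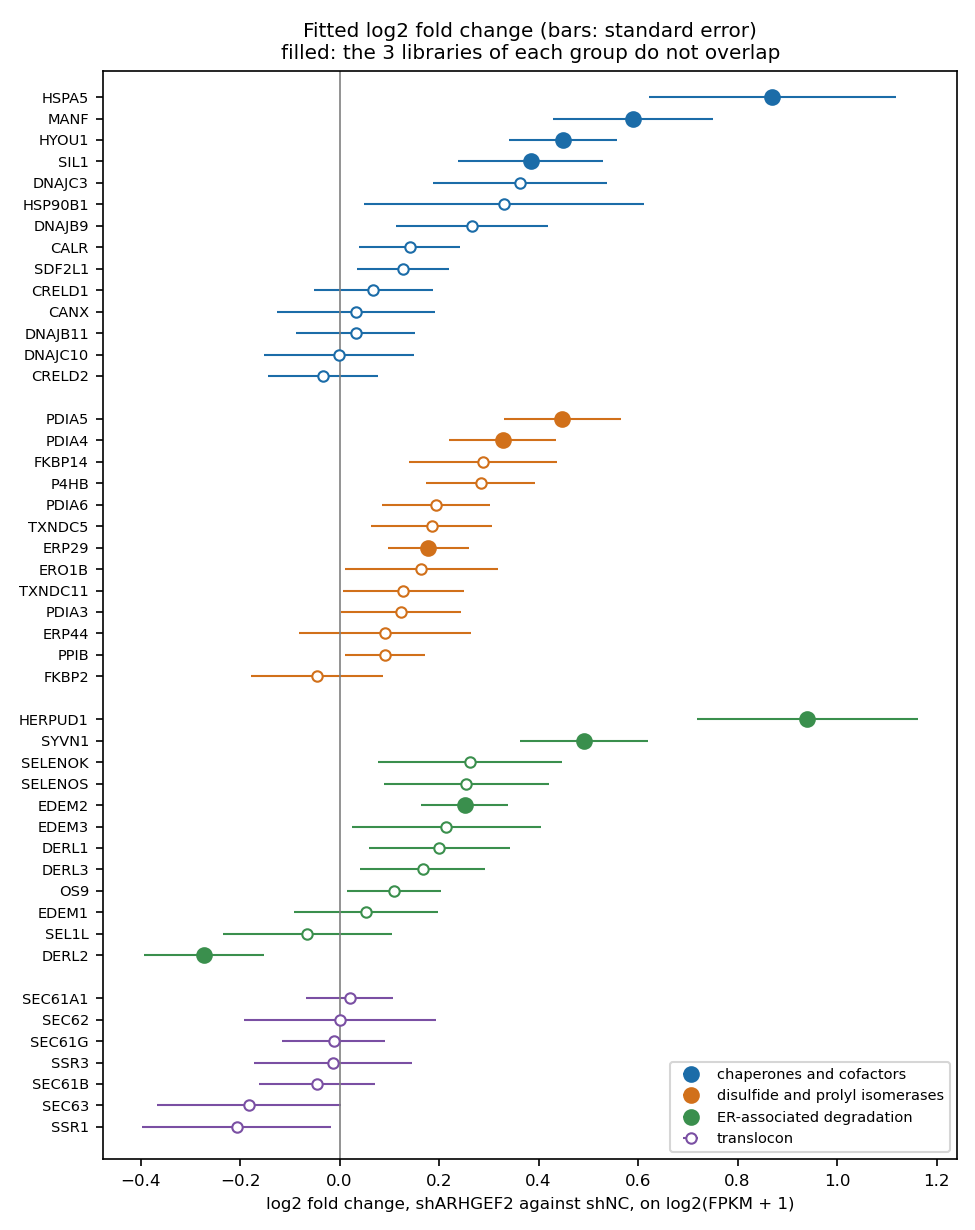
Fitted log2 fold change of each of the 46 genes, shARHGEF2 against shNC, on log2(FPKM + 1), with bars of 1 standard error, coloured and ordered within the role groups. Filled points mark genes whose 3 libraries of each group do not overlap. HERPUD1 (0.94) and HSPA5 (0.87) stand at the high end and DERL2 (-0.27) at the low end.

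Among the 14 chaperones and their partners, 12 were higher in shARHGEF2 and 2 lower, with a median log2 fold change of 0.20. HSPA5 was listed at 103, 129 and 133 FPKM in shNC and at 168, 329 and 198 FPKM in shARHGEF2. Every knockdown library lay above every control library, but shARHGEF2 replicate 2 stood far above the other two. The means were 121.8 ± 16 and 231.6 ± 85.3 FPKM (SD over 3 libraries of each group). Their ratio was 1.9, and the fitted log2 fold change was 0.87 with a standard error of 0.25. Against the shNC mean the 3 knockdown libraries differed by 0.47, 1.43 and 0.71 on the log2(FPKM + 1) scale. The coefficient of variation of HSPA5 over the knockdown libraries was 36.8%, higher than that of 91.9% of the genes tested, against 13.1% over the controls. This spread is the value that singled out HSPA5 when the genes were chosen, and its rank is given only as a description. Without shARHGEF2 replicate 2 the log2 fold change of HSPA5 was 0.59.

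**Figure D3:**
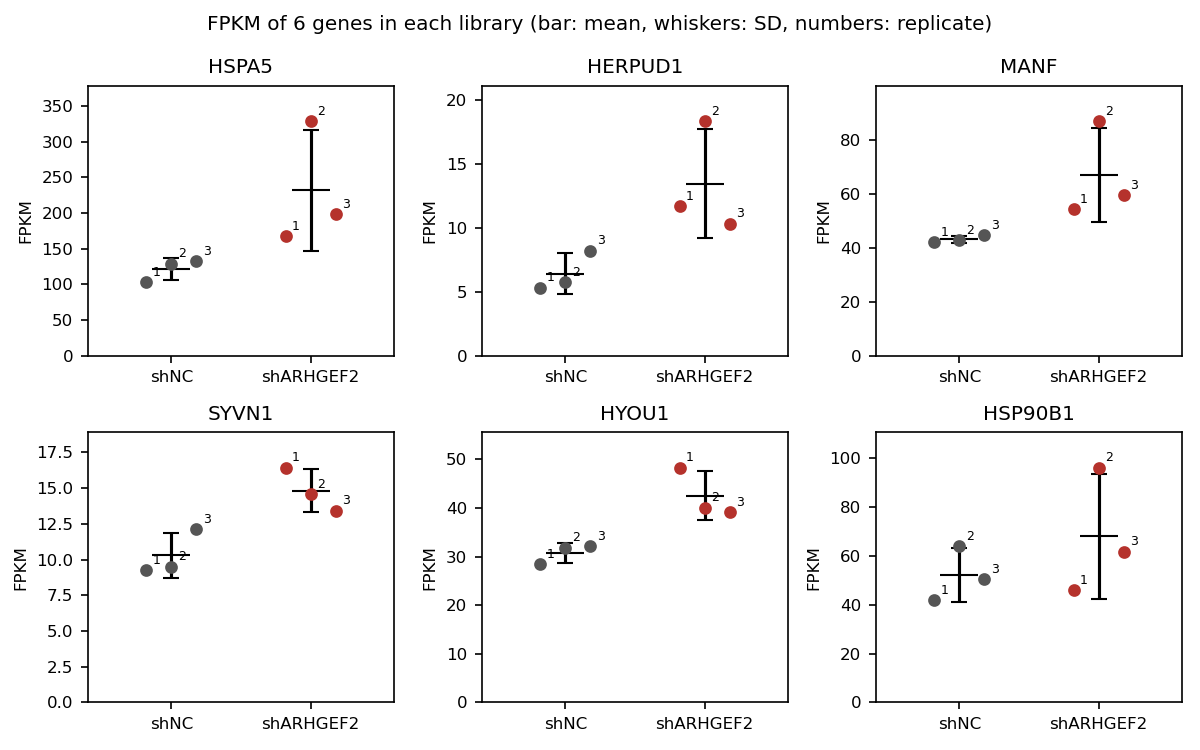
FPKM of HSPA5, HERPUD1, MANF, SYVN1, HYOU1 and HSP90B1 in each library, with the replicate number beside each point, the group mean as a bar and the SD as whiskers (n = 3). The 5 genes with the largest fold changes have no overlap between groups, and HSP90B1 was added after its values were seen because it ranks shARHGEF2 replicate 2 highest while its groups overlap. HSPA5 and MANF are highest in replicate 2, and SYVN1 and HYOU1 in replicate 1.

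The unfolded protein response acts on HSPA5 through the ER stress response element (ERSE), CCAAT followed by 9 bases of any kind and then CCACG. The promoter of HSPA5 is printed here because the group turns on this gene. The stretch covers chr9:125241374-125241493 of GRCh38.p14, is read 5′ to 3′ on the minus strand of the chromosome, which is the strand of the gene, and begins 150 bases before the RefSeq transcription start, with the fixed bases of the element that matches these letters in capitals.
HSPA5 promoter: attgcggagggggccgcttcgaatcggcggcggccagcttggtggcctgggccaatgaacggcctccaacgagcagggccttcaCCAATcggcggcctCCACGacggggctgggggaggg

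The same letters, and those of ERSE-II (ATTGG, 1 base of any kind, then CCACG), were searched on both strands in the RefSeq promoter windows of GRCh38.p14, from 250 bases before to 50 bases after each start. Of the 46 genes, 42 had a window. ERSE was found in 7 of the 42 (16.7%), against 25 of 27305 genes with a window (0.0916%), and ERSE-II in 3 (7.14%), against 19 genes (0.0696%). These elements are known from the unfolded protein response, and many of the 46 genes are known targets of it. The shares are therefore no independent result, and nothing is read from them. The matches are printed with 5 bases on each side, on the strand of the gene, to show the fixed bases (in capitals) that otherwise different promoters share. A match read as CGTGG followed by ATTGG or CCAAT lies in the reverse direction. A match to these letters is a description, not a bound site. Only exact matches were searched. Near matches, also those in the HSPA5 stretch above, stay in lower case and are not counted.
HSPA5 (chr9:125241386-125241414, 66 bases before the start): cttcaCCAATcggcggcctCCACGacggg
HSP90B1 (chr12:103930211-103930239, 194 bases before): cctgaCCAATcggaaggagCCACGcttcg
HSP90B1 (chr12:103930316-103930344, 89 bases before): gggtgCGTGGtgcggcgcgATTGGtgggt
CALR (chr19:12938379-12938407, 225 bases before): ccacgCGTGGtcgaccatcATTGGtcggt
CANX (chr5:179698773-179698801, 151 bases before): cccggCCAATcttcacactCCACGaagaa
PDIA6 (chr2:10812848-10812876, 86 bases before): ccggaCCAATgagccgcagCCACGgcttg
CRELD2 (chr22:49918549-49918577, 80 bases before): cctctCGTGGcgaactcggATTGGgccat
ERO1B (chr1:236282178-236282206, 243 bases before): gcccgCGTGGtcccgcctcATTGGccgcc
HYOU1 (chr11:119057375-119057395, 185 bases before): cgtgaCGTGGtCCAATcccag
HYOU1 (chr11:119057269-119057289, 79 bases before): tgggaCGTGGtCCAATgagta
HERPUD1 (chr16:56932020-56932040, 117 bases before): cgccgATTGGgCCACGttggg
SDF2L1 (chr22:21642109-21642129, 188 bases before): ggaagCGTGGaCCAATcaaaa

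Genes with these letters differed among themselves. Of the 10 genes with ERSE or ERSE-II, 9 were higher in shARHGEF2 and 3 of them (HSPA5, HYOU1 and HERPUD1) had no overlap between groups, with a median log2 fold change of 0.18 and a range from -0.03 for CRELD2 to 0.94 for HERPUD1. Of the 32 matched genes without either, 23 were higher and 7 had no overlap, with a median of 0.10. Over all genes tested 49.6% were higher and 11.3% had no overlap in that direction, and the difference between both sets of genes was not tested. A shorter element, TGACGTGG (UPRE), bound by XBP1 and ATF6, lay in 6 of 42 windows (14.3%) against 0.927% of all genes with a window, with the same limit. The median log2 fold change of those 6 was 0.06, and the UPRE match of HYOU1 overlaps its ERSE-II match.

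HYOU1, a large HSP70 relative that helps BiP release ADP, was at 28.4, 31.8 and 32.1 FPKM in shNC and at 48.3, 40.1 and 39.2 in shARHGEF2. All knockdown libraries were above the controls, and replicate 1, not replicate 2, was highest. Its log2 fold change was 0.45 with a standard error of 0.11. MANF, a secreted ER protein that binds BiP, was at 42.2, 42.9 and 44.7 FPKM in shNC and at 54.4, 86.9 and 59.6 in shARHGEF2. Here the order of the 3 knockdown libraries was that of HSPA5, with replicate 2 highest, and the log2 fold change was 0.59 with a standard error of 0.16. SIL1, a nucleotide exchange factor of BiP, also had no overlap, at a log2 fold change of 0.38. HSP90B1, the ER form of HSP90, was at 42.0, 63.9 and 50.6 FPKM in shNC and at 46.1, 96.1 and 61.8 in shARHGEF2. Its groups overlapped: shNC replicate 2 was above 2 of the knockdown libraries, and shNC replicate 3 was above shARHGEF2 replicate 1. The log2 fold change of HSP90B1, 0.33, was close to its standard error of 0.28.

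The most abundant of this group, the lectin chaperone CALR, was at 429, 473 and 410.4 FPKM in shNC and at 476, 536 and 437 in shARHGEF2, with overlapping groups and a log2 fold change of 0.14 (standard error 0.10). Its membrane-bound relative CANX overlapped too, at 0.03. The least abundant was DNAJC10, a disulfide reductase that works with BiP, at 0.600, 1.14 and 0.756 FPKM in shNC and 0.574, 1.05 and 0.857 in shARHGEF2, with a log2 fold change of -0.00. The J protein DNAJC3 had 0.36, DNAJB9 0.27 and DNAJB11 0.03, all with overlapping groups, and SDF2L1 had 0.13. CRELD2 was lower by a log2 fold change of -0.03 and CRELD1 higher by 0.07, both within the spread of their libraries.

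Of the 13 disulfide isomerases, oxidases and prolyl isomerases, 12 were higher in shARHGEF2 and 1 lower, with a median log2 fold change of 0.18. PDIA5 (0.45), PDIA4 (0.33) and ERP29 (0.18) had no overlap between groups. PDIA5 was at 8.91, 9.19 and 10.3 FPKM in shNC and 11.7, 14.8 and 13.5 in shARHGEF2, so its lowest knockdown library lay above its highest control. PPIB, cyclophilin B, the most abundant, was at 295, 277 and 266 FPKM in shNC and 296, 287 and 309 in shARHGEF2, a log2 fold change of 0.09 with a standard error of 0.08. These groups overlapped, as did those of P4HB (0.28), the classical protein disulfide isomerase, PDIA6 (0.19), PDIA3 (0.12), TXNDC5 (0.19), TXNDC11 (0.13), FKBP14 (0.29) and ERP44 (0.09). ERO1B, an oxidase that recharges the isomerases and the least abundant of the group, was at 0.567, 1.09 and 0.688 FPKM in shNC and 0.743, 1.31 and 0.933 in shARHGEF2, a log2 fold change of 0.16. FKBP2, a prolyl isomerase, was the lower one, at -0.05. PDIA3P2 and PDIA3P1, pseudogene copies of PDIA3, were listed at means of 6.5 and 1.64 FPKM. PDIA3P1 was at 0.364, 5.29 and 3.16 FPKM in shNC and 0.286, 0.48 and 0.279 in shARHGEF2. The level and the fold change of PDIA3 are therefore uncertain, to an extent that was not tested.

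Of the 12 genes of ER-associated degradation, 10 were higher in shARHGEF2 and 2 lower, with a median log2 fold change of 0.21. HERPUD1, a membrane scaffold of the HRD1 complex, was at 5.33, 5.74 and 8.23 FPKM in shNC and at 11.7, 18.3 and 10.3 in shARHGEF2. All knockdown libraries lay above the controls, with replicate 2 highest as for HSPA5. The means were 6.43 ± 1.57 and 13.5 ± 4.27 FPKM (SD, n = 3 each), with a log2 fold change of 0.94 and a standard error of 0.22, the largest of the 46. SYVN1, the HRD1 ligase itself, was at 9.25, 9.50 and 12.1 FPKM in shNC and 16.4, 14.6 and 13.4 in shARHGEF2. Here replicate 1 was highest, and the log2 fold change was 0.49 with a standard error of 0.13. EDEM2, which starts the trimming of mannose from misfolded glycoproteins, had no overlap at 0.25, while EDEM3 (0.21) and EDEM1 (0.05) overlapped.

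SEL1L, the partner that stabilises HRD1, did not follow SYVN1: it was at 1.33, 2.29 and 1.70 FPKM in shNC and 1.26, 2.09 and 1.59 in shARHGEF2, a log2 fold change of -0.06 with a standard error of 0.17. Its sign changed when shNC replicate 2 was left out (0.07) or shARHGEF2 replicate 1 was left out (0.04). The derlins, membrane proteins of the same exit route, went different ways. DERL2 was at 3.85, 4.0 and 3.64 FPKM in shNC and 2.59, 3.35 and 3.08 in shARHGEF2, a log2 fold change of -0.27 with a standard error of 0.12 and no overlap. DERL1 had 0.20 with overlapping groups. DERL3 was at 0.492, 0.367 and 0.552 FPKM in shNC and 0.895, 0.472 and 0.608 in shARHGEF2, 0.17 with overlapping groups. The lectin OS9, the most abundant of the group, was at 34.8, 37.2 and 41.6 FPKM in shNC and 39.5, 41.3 and 41.9 in shARHGEF2, 0.11 with a standard error of 0.09. The selenoproteins SELENOK (0.26) and SELENOS (0.25), which bind derlins, also overlapped.

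Of the 7 translocon genes, 2 were higher and 5 lower, with a median log2 fold change of -0.01 and overlap between groups in all 7. The direction was not stable: with the GC trend removed, a step described below, 4 were higher and 3 lower with a median of 0.01, and the median was also above 0 without shARHGEF2 replicate 1 (0.04, with 5 higher) or without shNC replicate 2 (0.02, with 4 higher). SEC61A1, the channel itself and the most abundant, was at 60.5, 67.6 and 59.5 FPKM in shNC and 63.1, 61.5 and 65.4 in shARHGEF2, 0.02 with a standard error of 0.09. SEC61B, its small subunit, was at 45.1, 48.2 and 39.4 FPKM in shNC and 37.5, 43.7 and 47.4 in shARHGEF2, -0.05 with a standard error of 0.12, and this sign also changed without shNC replicate 2 (0.02) or shARHGEF2 replicate 1 (0.04). SEC61G and SSR3 were both at -0.01. SSR1, a translocon-associated glycoprotein, was at 6.65, 5.89 and 4.20 FPKM in shNC and 4.86, 3.52 and 5.73 in shARHGEF2, -0.21 with a standard error of 0.19. SEC63, which recruits BiP to the channel, was at 1.69, 2.78 and 1.61 FPKM in shNC and 1.16, 1.93 and 1.87 in shARHGEF2, -0.18 with a standard error of 0.18. SEC62, its partner and the least abundant of these 7, was at 1.42, 2.03 and 1.41 FPKM in shNC and 0.995, 2.30 and 1.70 in shARHGEF2, 0.00 with a standard error of 0.19.

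The knockdown libraries did not differ by the same amount from the controls. Of the 46 genes, 30 had their highest knockdown value in shARHGEF2 replicate 2 and 29 their lowest in replicate 1. Over all 12291 genes tested these numbers were 5111 and 5920. The median difference of the 46 genes from the shNC mean was 0.05, 0.22 and 0.15 on the log2(FPKM + 1) scale in shARHGEF2 replicates 1, 2 and 3, and -0.10, 0.11 and -0.04 in shNC replicates 1, 2 and 3. For all genes tested the knockdown medians were -0.06, 0.04 and 0.02. The medians of the ER-associated degradation genes lay closer together, at 0.17, 0.19 and 0.17 in shARHGEF2 replicates 1, 2 and 3. The single genes were not even: 7 of these 12 were highest in replicate 2. Their median coefficient of variation over the knockdown libraries was 18.5%, against 12.3% for the 46 genes. Without shARHGEF2 replicate 2 the median log2 fold change of the 46 genes was 0.10 instead of 0.15, and 33 of them were higher.

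**Figure D4:**
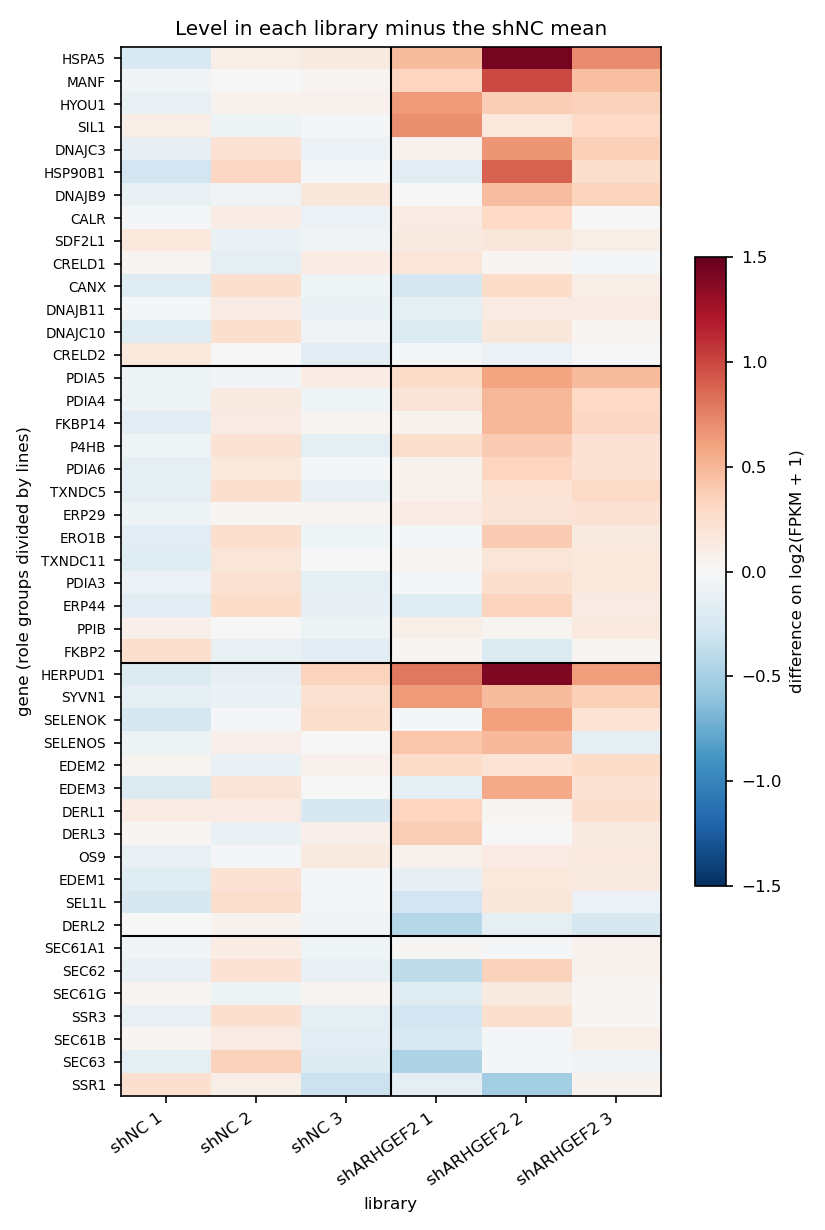
Level of each of the 46 genes in each library minus its shNC mean, on log2(FPKM + 1), red above and blue below, with black lines between the role groups. The column of shARHGEF2 replicate 2 is the reddest in the rows of HSPA5, MANF and HERPUD1, with HSPA5 at 1.43, and the translocon rows at the bottom are mixed.

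GC content moved with the libraries. The rank correlation across genes between GC content and a library's difference from the other libraries of its group was 0.38, -0.52 and 0.24 in shNC replicates 1, 2 and 3 and 0.60, -0.49 and -0.19 in shARHGEF2 replicates 1, 2 and 3. It was computed over genes, which are not independent replicates. The transcripts of HSPA5 had a GC content of 46%, the median of the 46 genes was 48.5% and that of the genes tested 51.6%. With a smooth GC trend removed from each library, a step added after the data were seen, the 3 knockdown libraries lay 0.61, 1.37 and 0.69 above the shNC mean for HSPA5, with a log2 fold change of 0.89 and a standard error of 0.21. The library medians of the 46 genes then were 0.10, 0.20 and 0.12 in shARHGEF2 replicates 1, 2 and 3. The number of genes above all controls in every knockdown library was then 16 instead of 10, beside 13.4% of the genes tested under that setting.

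Across the 6 libraries the other 45 genes were compared with HSPA5 by Pearson correlation of log2(FPKM + 1). Since the points share libraries, depth and GC trends, this is a description. The genes were also chosen with their fold changes known and with the uneven HSPA5 values as the stated reason. A gene that differs between the groups as HSPA5 does can get a high r from that difference alone. The ranks and shares below are therefore no independent result, and nothing is read from them. The median r was 0.60 for the 45 genes and 0.14 over the other 12290 genes tested. MANF had rank 3 of all 12290 genes, with an r of 0.99, and PDIA5 (rank 86) and PDIA4 (rank 98) were also within the first 100 genes. HERPUD1 (106), FKBP14 (129) and DNAJC3 (242) followed, so that 6 of the 45 (13.3%) had an r of at least 0.9, beside 2.5% of all genes. Median r was 0.77 for the isomerases, 0.63 for ER-associated degradation, 0.53 for the chaperones and 0.05 for the translocon. With each group mean removed, 0 of the 45 stayed within the first 100, and MANF had rank 128. The median r was then 0.56 against 0.21 over all genes. With the group means kept, the genes nearest to HSPA5 were IFRD1, CDV3, MANF, E2F7 and MFF, of which only MANF is an ER chaperone gene. Without shNC replicate 1, shARHGEF2 replicate 1 or shARHGEF2 replicate 2, only 1 of the 45 was within the first 100.

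Other genes of the same pathway, 88 in 5 lists outside the 46, were read from the same fit, and 86 of them were tested. These lists too were chosen with earlier results of these data known. Their counts and p-values are therefore no independent result. Of the 86, 57 were higher and 29 lower in shARHGEF2, with a median log2 fold change of 0.08, where 49.6% of all genes tested were higher. At an unadjusted p under 0.05, 15 were higher and 1 lower, beside 8.1% and 5.55% of all genes tested, shares that also stand beside the counts of each list below. Only GANAB passed the adjusted threshold, 1 of 86 beside 0.277% of all genes tested. GANAB, the catalytic subunit of glucosidase II, which trims the sugar chains that calnexin and calreticulin read, was at 92.0, 96.0 and 95.2 FPKM in shNC and at 137, 150.4 and 147 in shARHGEF2. It rose, with a log2 fold change of 0.61, a standard error of 0.08 and an adjusted p of 0.0302 in limma, and both groups were tight. Its adjusted p in limma ran from 0.0256 to 0.232 over 13 other settings. It lost the call when any library other than shNC replicate 3 was left out (adjusted p from 0.0665 to 0.10 in limma), with log2 fold changes from 0.58 to 0.65. Of its list, glycosylation and glucosidases, 14 of 15 were tested, 12 were higher and 2 lower, and MAGT1, with a larger log2 fold change of 0.74, and MOGS, with 0.40, did not pass the test (adjusted p in limma 0.239 and 0.266).

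No gene of the other 4 lists passed the adjusted threshold in limma. In the list of other folding and retrieval proteins 16 of 21 tested genes were higher and 5 lower, with 5 higher and 0 lower at an unadjusted p under 0.05. Its largest values were those of the prolyl isomerase FKBP9 (0.68, adjusted p 0.0900 in limma) and the receptors KDELR3 (0.53, 0.126) and KDELR2 (0.46, 0.175), which return ER proteins from the Golgi. Of the 17 genes of the signal recognition particle, signal peptidase and other entry proteins, 7 were higher and 10 lower, with a median of -0.07. SRPRA, the receptor of the particle, stood apart at 0.40 (adjusted p 0.126 in limma), ahead of TRAM1 (0.23, 0.799) and SPCS2 (-0.18, 0.502), and 1 gene was higher and 0 lower at an unadjusted p under 0.05.

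In the list of other degradation genes 12 of 20 were higher and 8 lower, with a median of 0.03 and with 2 higher and 1 lower at an unadjusted p under 0.05. The lectin ERLEC1 had 0.49 (adjusted p 0.137 in limma), TMUB1 0.37 (0.270) and ERLIN2, part of a ligase platform, -0.39 (0.356), and the ATPase VCP had 0.11 (0.714). Of the 14 sensors and factors of the unfolded protein response 10 were higher and 4 lower, with a median of 0.10, and 3 were higher and 0 lower at an unadjusted p under 0.05. DDIT3, which encodes CHOP, was at 8.77, 7.73 and 15.2 FPKM in shNC and at 13.8, 39.0 and 23.5 in shARHGEF2. Its highest value too was in replicate 2, and the groups overlapped (log2 fold change 1.13, adjusted p 0.336 in limma). XBP1 did not overlap, at 33.7, 33.2 and 37.5 FPKM against 55.2, 52.2 and 44.5 (0.52, adjusted p 0.114 in limma). ATF3 had 0.57 (adjusted p 0.385 in limma). ATF6B did not overlap either, but was lower in shARHGEF2 (-0.18, adjusted p 0.411 in limma). The other 12 genes of the list overlapped, among them ATF4 (0.10), TRIB3 (0.05) and ATF6 (0.04).

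**Figure D5:**
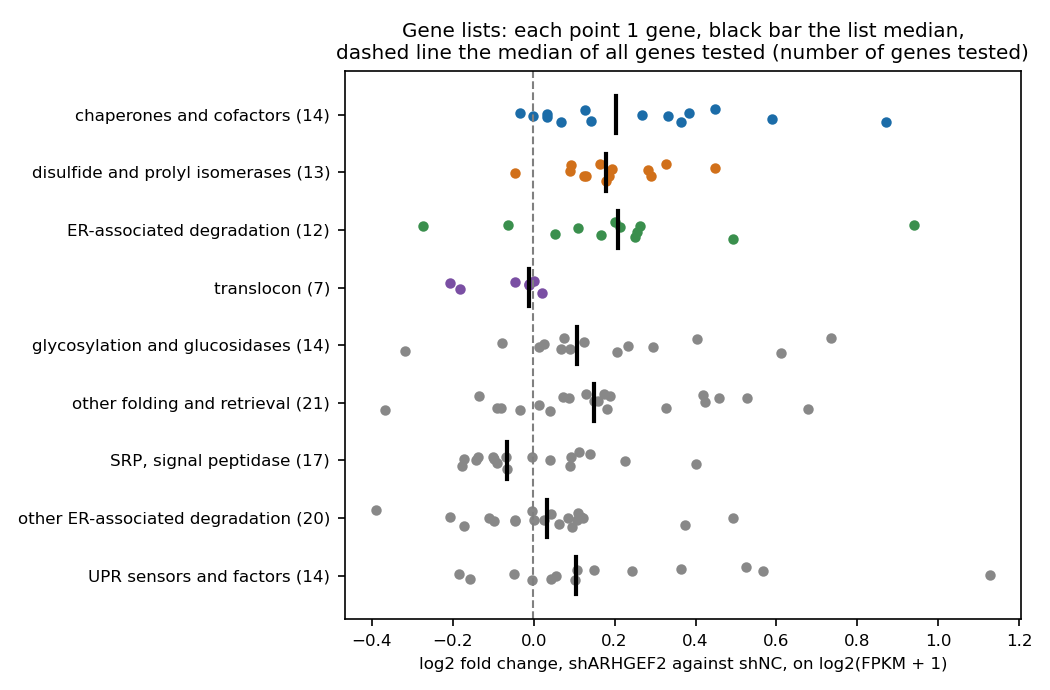
Log2 fold change, shARHGEF2 against shNC, on log2(FPKM + 1), of every tested gene in the 4 role groups of the 46 genes (coloured) and in the 5 other ER lists (grey), with the list median as a black bar and the median of all genes tested as a dashed line. The medians of chaperones (0.20), isomerases (0.18) and degradation genes (0.21) lie to the right, and those of the translocon (-0.01, above 0 with the GC trend removed) and of other entry proteins (-0.07) left of the dashed line.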

How the data were processed

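FPKM values per gene of 6 poly(A) RNA libraries labelled HepG2 were read from 1 deposited table. Per the labels, the libraries kept strand and carried molecular identifiers, and the submitters' processing notes name cutadapt 1.9, HISAT2 2.0.4, UMI-tools, StringTie 1.3.4d, DESeq2, edgeR and build hg19, without their roles. The authors' columns of fold changes, p-values and q-values were not used. Low FPKM values fell near whole reads too rarely (39.9 to 41.4% within 0.1, where 20% is chance) to recover counts.

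Genes whose mean over the libraries reached 0.5 FPKM were tested with limma 3.58.1 (R 4.3.3) on log2(FPKM + 1), with trend and robust variances and Benjamini-Hochberg adjustment over 12291 genes, called under 0.05. The script was tested on simulated data. GC content came from GENCODE 29, which held 106543 of 112516 transcripts. The labels name no pairing, and the main fit had no block. Deviations of same-numbered libraries from their group means had correlations of 0.184, 0.159 and -0.105, which do not settle whether they share a batch. Library values are given for HSPA5, the 5 highest and 5 lowest log2 fold changes, the most and least abundant of each role, and GANAB. The 3 most changed genes of each other list are given with a log2 fold change and an adjusted p in limma. Of these, DDIT3 and XBP1 also have library values. Apart from ARHGEF2, other genes were named after their values were seen. The members, lists and tests were chosen with earlier results of these data known. Promoter sequences are RefSeq's on GRCh38.p14, not the build of the table.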

Additional observations from a re-analysis of the deposited data

How the results depend on the processing

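The median log2 fold change of the 46 ER genes stayed above 0 under all 13 other settings: it ran from 0.10 to 0.21, between 33 and 41 were higher, 0 passed the adjusted threshold in limma in each, and HSPA5 ran from 0.59 to 1.07. The number of the 46 above all controls was more variable, 20 without shNC replicate 2 (16.8% of genes tested) and 15 without shARHGEF2 replicate 1 (18.5%), against 10. Of the 46, 14 changed sign in at least 1 setting, each with a log2 fold change of at most 0.09 in size as reported, including 5 of the 7 translocon genes, and 3 did so with the GC trend removed (DNAJC10, SEC61G and SSR3).

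The number of all genes passing in limma was 34, against 1 with no filter on low values, 54 with at least 1 FPKM in 3 libraries, 19 after quantile normalization and 7 without trend or robust variances, and from 6 to 102 when 1 library was left out (102 without shNC replicate 3). In the other ER lists 0 genes passed with no filter (13 at an unadjusted p under 0.05), 0 without trend or robust variances (15), and 0 to 1 with 1 library left out, against 1. With the replicate number as a block, 0 of all genes and 0 of the other ER lists passed in limma. At an unadjusted p under 0.05 in limma, 1976 of the 12291 genes tested passed in either direction, and 17 of 86 in the other ER lists. Of the 46 genes, 14 were higher and 1 lower at that threshold. The share of all genes in each direction is not given for this setting, so nothing is read from these counts. The labels do not say whether equal numbers mark a shared batch. The GC trends had the same sign in both groups for replicate 1 (0.38 and 0.60) and replicate 2 (-0.52 and -0.49), but not for replicate 3 (0.24 and -0.19). Whether the block fits the design therefore cannot be told, and the block result stands beside the main one. ARHGEF2 stayed at -1.47, with an adjusted p in limma of 0.0701 with no filter and 0.0716 with the block. The number of the 45 genes within the first 100 of the comparison with HSPA5 ran from 1 to 3 with 1 library left out, against 3. With 3 libraries a group, small differences could not be resolved; the cause of these shifts was not tested.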

Other observations

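Outside the 46 genes, 19 tested genes had ERSE or ERSE-II letters in their RefSeq promoter window. Of these 11 were higher in shARHGEF2, beside 49.6% of all genes tested, and the median log2 fold change of the 19 was 0.09. XBP1 was the highest, at 0.52. NUCB1, which encodes a calcium-binding Golgi protein, was at 83.5, 75.5 and 88.9 FPKM in shNC and 107, 97.7 and 96.7 in shARHGEF2. SERP1, which encodes a stabiliser of membrane proteins in the ER, was at 17.7, 18.1 and 18.3 FPKM in shNC and 20.4, 22.3 and 20.5 in shARHGEF2. Both NUCB1 and SERP1 had no overlap between groups, at log2 fold changes of 0.28 and 0.21. XBP1, ALG12 (0.17) and RAD9A (0.15) also lay above all controls, as did 11.3% of all genes tested. TRIM5 (0.28), ZNF143 (0.27) and SYNPO (0.26) were higher with overlapping groups. Nothing is read from these values. FICD, the enzyme that modifies BiP with AMP, had -0.15. GYS1, a glycogen synthase, had -0.27.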
